A study of Mus musculus with 6 samples.

Results

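The genes described here are 31 genes that fibroblasts use to build extracellular matrix or to contract, read in mouse embryonic stem cells that were wild type or knockout for Setd2, the gene of a histone H3 lysine 36 methyltransferase. They were taken by name, with every probe set annotated to one of them and to no other gene. Of the 31, 30 had such a probe set (59 probe sets in all), 26 genes passed the filter on dim signals, and 39 of the 59 probe sets did so. These 26 stood among 12915 genes tested. Fbn1, a microfibril gene, was not analysed here.

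Total RNA was hybridised to Affymetrix mouse genome arrays, 3 per genotype, numbered 1 to 3 as biological repeats. Both genotypes were of strain 129SV/C57BL/6 and received no treatment. Both were grown on feeder cells in ES medium. Before collection, feeders were depleted by plating the cell suspension briefly on gelatin, moving the unattached cells on, and growing them for 1 passage without feeders. The labels state neither the deleted part of Setd2, nor whether each genotype was 1 clone, nor the source of the feeders, nor what arrays of the same number share. Nothing says that the 3 repeats came from separate cultures, so p-values measure only the spread between these samples. Values are log2 signals from MAS5, the Affymetrix algorithm that gives 1 signal per probe set. A difference of 1 is a 2-fold difference, and levels of different probe sets are not compared.

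Fibroblasts secrete fibrillar collagens as procollagens, which assemble outside the cell with small proteoglycans such as decorin and with glycoproteins such as fibronectin, and are then crosslinked by lysyl oxidases. Activated fibroblasts also hold smooth muscle actin and transgelin, proteins of contractile stress fibres. Mouse embryonic stem cells are often grown on a layer of growth-arrested embryonic fibroblasts, so a stem cell culture can hold both cell types, while stem cells themselves make some matrix proteins, fibronectin among them.

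Stem cell markers were bright on all 6 arrays. Pou5f1, a core pluripotency factor, read between 13.48 and 13.89, and Sox2, its partner on DNA, between 13.43 and 13.80. The mean log2 signal of 16 tested stem cell markers was 12.75, 12.59 and 12.65 on wild type arrays 1, 2 and 3 and 12.53, 12.42 and 12.49 on the knockout arrays. The Setd2 probe set checked the labels: it read 10.31, 10.30 and 10.31 in wild type and 9.37, 9.50 and 9.60 in knockout, a difference of -0.82 ± 0.12 (SE; limma, adjusted p = 0.027). Whether that probe set lies in the deleted part was not given. Signal of Y-linked genes set the cultures apart as well. Eif2s3y read 4.46, 5.14 and 5.17 in wild type and 11.18, 11.16 and 11.57 in knockout (limma, adjusted p = 1.4e-05). Effects of Setd2 and other differences between these cultures cannot be told apart.

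The promoters of a contractile and a collagen gene are shown because both genes read lower on the arrays numbered 1 of both genotypes, the pattern described next. Each is the 250 bases before the gene's start in the RefSeq promoter table of build GRCm38.p6, printed 5′ to 3′ on the strand of the gene. Capitals mark matches, on either strand, to the CArG box, the element bound by serum response factor (searched with at most 1 deviation), or to CCAAT.
Acta2 (chr19:34255374-34255623, minus strand): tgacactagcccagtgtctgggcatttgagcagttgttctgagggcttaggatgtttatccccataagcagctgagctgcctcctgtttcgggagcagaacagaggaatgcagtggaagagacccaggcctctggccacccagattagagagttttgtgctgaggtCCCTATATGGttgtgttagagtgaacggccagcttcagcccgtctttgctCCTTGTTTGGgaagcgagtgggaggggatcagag
Col1a2 (chr6:4505368-4505617, plus strand): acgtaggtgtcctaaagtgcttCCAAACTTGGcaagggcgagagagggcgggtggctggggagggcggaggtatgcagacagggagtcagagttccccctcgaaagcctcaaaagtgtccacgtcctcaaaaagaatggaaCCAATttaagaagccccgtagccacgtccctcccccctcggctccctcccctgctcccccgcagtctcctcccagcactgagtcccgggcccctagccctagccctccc
The Acta2 window held 2 CArG boxes, at bases -84 to -75 and -34 to -25 counted from the start, and the Col1a2 window held 1 at -228 to -219 and a CCAAT at -109 to -105. Of 32851 windows of the same length in the table, 8.59% held a CArG box and 33.8% held CCAAT. Windows were found for 17 members (19 windows). Of the 19, 5 held a CArG box, 2 held CCAAT and 4 held TATAAA, which 12.4% of all windows held. A match describes these letters and shows no binding.

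The first question was whether arrays of one number resembled each other across the genotypes, since both arrays numbered 1 had stood apart in earlier results. Most of the matrix, contractile and chemokine genes read lower on the arrays numbered 1 than on numbers 2 and 3. In wild type 12 of 26 genes were at least 2-fold lower on array 1 than the mean of arrays 2 and 3, where 2.13% of all 12915 genes were. In knockout 16 of 26 were, against 3.58% of all genes. In both genotypes 11 were, against 1.02%, and in either 17 were, against 4.68%. At least 2-fold higher on array 1 were 0 members in wild type (3.55% of all genes), 1 in knockout (5.24%) and 0 in both (1.54%). Both arrays numbered 1 lay below the other 4 for 17 genes (16.9% of all genes) and above them for 1 gene, Mmp2 (23.6% of all genes). The median difference of number 1 was -0.95 in wild type and -1.14 in knockout, and over all genes it was 0.04 and 0.06. With 1 array against 2, chosen with the pattern known, these are descriptions and carry no test. In RNA from whole cultures, fewer cells of a type and less RNA per cell cannot be told apart, and the part of feeder cells in these values was not tested.

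**Figure D1:**
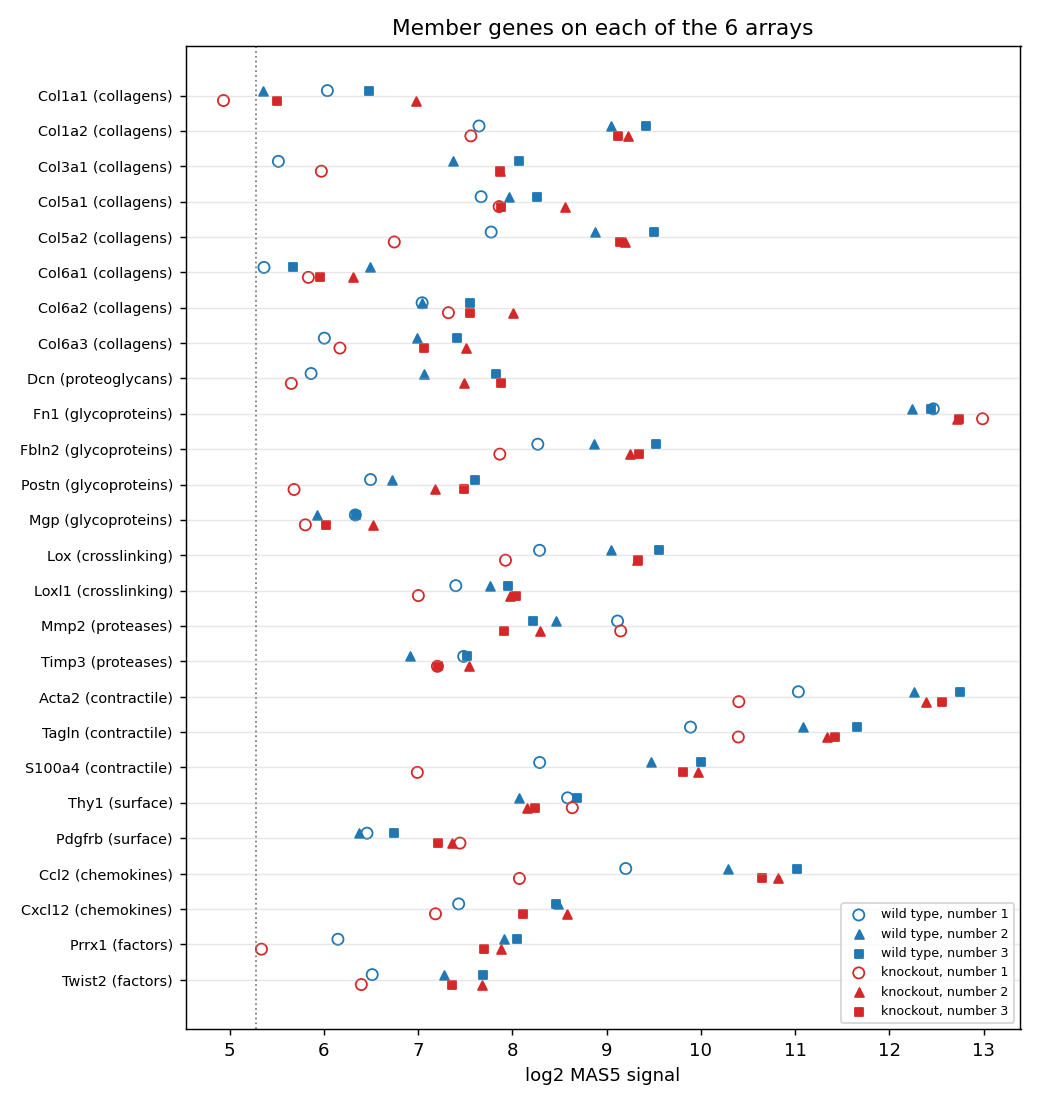
Log2 MAS5 signal (horizontal axis) of each of the 26 tested members, with its role in brackets, on the 3 wild type (blue) and 3 knockout (red) arrays. Open circles are the arrays numbered 1, triangles number 2, squares number 3, and the dotted line is the filter on the mean (5.27). For 17 genes both open circles lie left of all 4 other points, and for Mmp2 both lie right of them.

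Among the fibrillar collagens, Col1a2, the second chain of type I collagen, read 7.65, 9.05 and 9.42 on wild type arrays 1, 2 and 3 and 7.56, 9.23 and 9.12 on the knockout arrays. Array 1 was thus 3.01-fold lower in wild type and 3.07-fold lower in knockout. The other tested Col1a2 probe set was 2.35-fold lower in wild type and 1.71-fold lower in knockout. A 2-fold gap in both genotypes thus held only at the brighter probe set. Col3a1, the type III collagen chain, read 5.52, 7.37 and 8.07 in wild type and 5.97, 7.87 and 7.87 in knockout. Its gap on array 1 was 4.61-fold in wild type, the widest among the 26 tested members there, and 3.72-fold in knockout. Col5a2, a chain of the type V collagen that helps set fibril diameter, read 7.77, 8.87 and 9.51 in wild type and 6.75, 9.20 and 9.14 in knockout, 2.67-fold and 5.36-fold lower on array 1. Its partner chain Col5a1 read 7.67, 7.96 and 8.26 against 7.86, 8.56 and 7.88, with array 1 lower by less than 2-fold in both genotypes. The other tested Col5a1 probe set showed no common gap, with differences of -0.06 in wild type and 0.08 in knockout.

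Col1a1, the first chain of type I collagen, did not follow Col1a2. Its brighter probe set read 6.04, 5.35 and 6.48 in wild type and 4.93, 6.97 and 5.51 in knockout. The other tested probe set read 5.72, 5.84 and 4.12 and then 5.81, 5.89 and 6.21. Both sat close to the filter, varied by more than 1 unit within a genotype, and disagreed in sign between genotypes, so they give no clear order of the arrays.

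The type VI collagens form beaded filaments near the cell surface. Col6a3 read 6.00, 6.99 and 7.41 in wild type and 6.17, 7.51 and 7.07 in knockout, 2.29-fold and 2.17-fold lower on array 1. Col6a1 (5.36, 6.49 and 5.67, then 5.83, 6.31 and 5.95) and Col6a2 (7.04, 7.04 and 7.55, then 7.32, 8.0 and 7.55) differed by less than 2-fold. In all, 4 of the 8 collagen genes were at least 2-fold lower on number 1 in both genotypes.

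Of the 4 small proteoglycan genes and their partners, only Dcn, which encodes the collagen-binding proteoglycan decorin, passed the filter. Dcn read 5.86, 7.06 and 7.82 in wild type and 5.65, 7.49 and 7.87 in knockout, with array 1 lower by 2.99-fold and 4.08-fold. Lum (4.26 to 5.43), Ogn (brighter probe set between 3.50 and 5.71) and Dpt (2.13 to 5.14) were too dim to test. Dpt and the brighter Ogn probe set were highest on wild type array 1, the reverse of Dcn, at signals near or below the filter. The other Ogn probe set was highest on wild type array 3 (4.64, with 4.37 on array 1). Knockout array 1 differed from the mean of arrays 2 and 3 by -0.22 and -0.78 for the Ogn probe sets and by 0.65 for Dpt.

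Glycoproteins of the matrix were split. Fbln2, the basement membrane and elastic fibre protein fibulin, read 8.27, 8.87 and 9.52 in wild type and 7.87, 9.25 and 9.35 in knockout, 1.90-fold and 2.69-fold lower on array 1. Postn, encoding periostin, read 6.49, 6.72 and 7.60 and then 5.68, 7.18 and 7.49, or 1.59-fold and 3.14-fold lower. Both genes kept arrays numbered 1 below the other 4. Fn1, encoding fibronectin, was bright and close to level by number, at 12.47, 12.25 and 12.44 in wild type and 12.99, 12.72 and 12.74 in knockout. Mgp, matrix Gla protein, read 6.33, 5.93 and 6.34 and then 5.80, 6.52 and 6.02, with no common order.

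Both lysyl oxidase genes were lower on number 1. Lox read 8.29, 9.04 and 9.56 in wild type and 7.93, 9.32 and 9.33 in knockout, 2.02-fold and 2.64-fold lower. Its second tested probe set showed the same order, with differences of -1.23 and -1.99. Loxl1 read 7.40, 7.77 and 7.96 and then 7.0, 7.97 and 8.03, so that knockout array 1 lay at the 2-fold line (2.00-fold) and wild type array 1 was 1.38-fold lower.

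Neither tested member of the matrix protease group, Mmp2 or Timp3, was 2-fold lower on number 1 in either genotype. Mmp2, a gelatinase that degrades denatured collagen, read 9.12, 8.46 and 8.22 in wild type and 9.15, 8.29 and 7.91 in knockout, so that array 1 was the highest of its genotype, by 0.78 and 1.05. Its other probe set differed by 0.64 and 1.02 in the same direction. Timp3, an inhibitor of metalloproteinases bound to the matrix, read 7.48, 6.91 and 7.52 and then 7.20, 7.54 and 7.21, and its 3 tested probe sets disagreed in sign. Fap, a serine protease of activated fibroblasts, was too dim to test (2.97 to 5.53).

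The contractile genes were bright and their gaps were wide. Acta2, the smooth muscle actin gene whose promoter is shown above, read 11.03, 12.26 and 12.75 in wild type and 10.40, 12.39 and 12.55 in knockout. Array 1 was 2.77-fold lower in wild type and 4.19-fold lower in knockout, and all 4 other arrays lay above both. Tagln, the actin-binding protein transgelin, read 9.89, 11.09 and 11.65 and then 10.40, 11.34 and 11.42, with array 1 lower by 2.79-fold and 1.98-fold. S100a4, a calcium-binding regulator of non-muscle myosin, read 8.29, 9.47 and 9.998 and then 6.99, 9.97 and 9.81. Its 7.45-fold gap on knockout array 1 was the widest among the 26 tested members, beside 2.72-fold in wild type.

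The 2 surface proteins among the members, Thy1 and Pdgfrb, differed little by number. Thy1, a glycoprotein that mouse fibroblasts and other cells carry, read 8.59, 8.07 and 8.68 in wild type and 8.64, 8.15 and 8.24 in knockout. Pdgfrb, the receptor for platelet-derived growth factor on mesenchymal cells, read 6.46, 6.38 and 6.75 and then 7.44, 7.36 and 7.21. Neither was 2-fold lower on number 1, unlike 6 of 18 genes of a separate list of mesenchymal surface proteins and factors described further on.

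Both chemokines were lower on number 1. Ccl2, a monocyte attractant, read 9.20, 10.29 and 11.02 in wild type and 8.07, 10.82 and 10.65 in knockout, a gap of 2.73-fold and 6.31-fold. Cxcl12, the ligand of CXCR4, read 7.43, 8.48 and 8.47 and then 7.18, 8.58 and 8.12, 2.06-fold and 2.24-fold lower. The other tested Cxcl12 probe set was 1.36-fold lower in wild type and 2.30-fold lower in knockout, so its wild type gap stayed under 2-fold.

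The 2 transcription factor genes of limb and skin mesenchyme did the same. Prrx1 read 6.15, 7.91 and 8.05 in wild type and 5.34, 7.88 and 7.70 in knockout, with array 1 lower by 3.56-fold and 5.46-fold. All 4 of its tested probe sets were at least 2-fold lower on number 1 in both genotypes, with differences from -1.001 to -2.59. All but the brightest read below the filter value (5.27) on both arrays numbered 1. These passed the filter on the mean only through arrays 2 and 3, so their gaps add little. Untested Prrx1 probe sets differed by 0.19 and -1.95 in wild type and by -0.42 and -0.09 in knockout. Twist2 read 6.51, 7.27 and 7.69 and then 6.40, 7.67 and 7.35, or 1.96-fold and 2.17-fold lower.

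**Figure D2:**
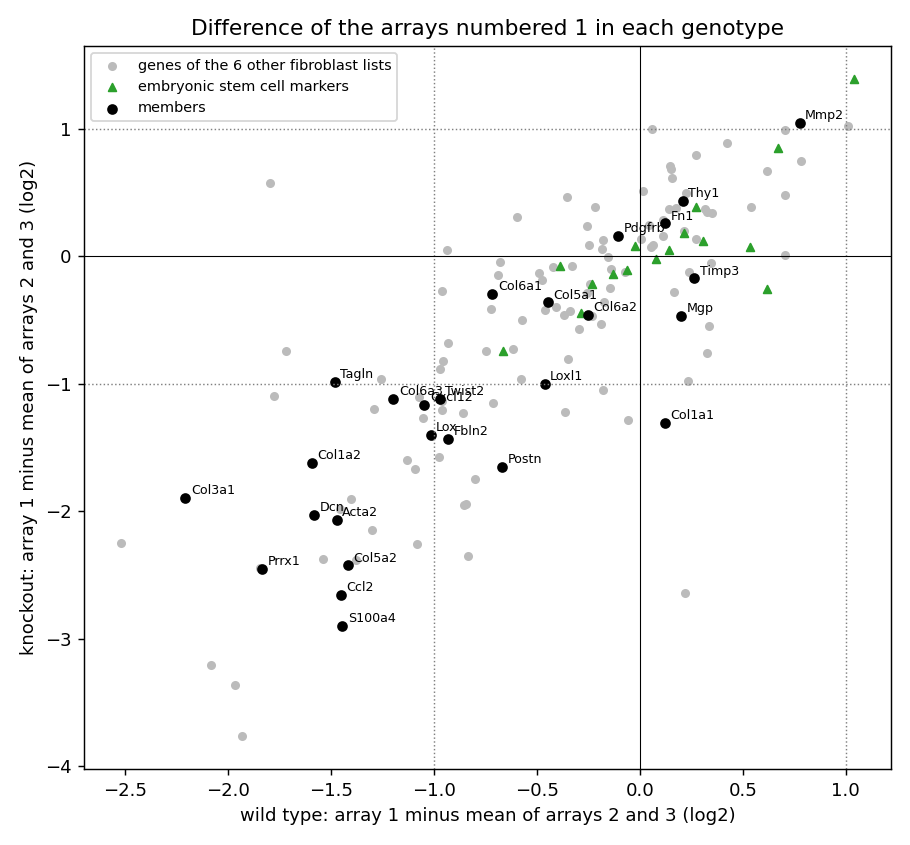
Difference of array 1 from the mean of arrays 2 and 3 in wild type (horizontal axis, log2) and knockout (vertical axis, log2), for the 26 members (black, labelled), the genes of 6 other fibroblast lists (grey) and stem cell markers (green triangles). Dotted lines are 2-fold. There are 11 members in the lower left beyond both lines, from Lox and Cxcl12 near the corner to Col3a1, Prrx1 and S100a4.

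Other genes of fibroblasts, from 6 lists that hold no member, showed the gap for some of their genes. Of 106 tested genes, 17 (16.04%) were at least 2-fold lower on number 1 in both genotypes, a share above the 1.02% of all genes and below the 42.3% of the members. Mesenchymal surface proteins and factors gave 6 of 18. Cdh11, a cadherin of mesenchymal cells, read 7.12, 8.81 and 9.36 in wild type and 5.90, 9.16 and 9.38 in knockout. Cd44, the hyaluronan receptor, read 9.04, 10.60 and 11.17 and then 8.49, 10.98 and 10.90. Vcam1, an adhesion molecule (-1.08 and -2.26), and the mesenchymal factor Tbx15 (-1.77 and -1.10) were also lower on number 1. Tbx15 read 4.29 and 4.95 on the arrays numbered 1, below the filter value (5.27), and passed on its mean only through arrays 2 and 3. Vcam1 read 5.19 on knockout array 1.

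Secreted factors gave 3 of 13, with a median of -0.80 in wild type and -1.94 in knockout. Csf1, the macrophage growth factor, read 8.36, 9.65 and 10.14 in wild type and 7.41, 9.76 and 9.81 in knockout. Ccl7, a second monocyte attractant, differed by -1.38 and -2.38, Serpinf1 by -1.30 and -2.14, and the neutrophil attractant Cxcl1 by -0.83 and -2.35.

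Other matrix genes gave 5 of 29, with medians of -0.37 and -0.28. Matrix turnover gave 2 of 10, with medians of -0.64 and -0.47. Both arrays numbered 1 lay below the other 4 for 5 of its 10 genes (16.9% of all genes). The 2 that were 2-fold lower in both genotypes were Timp2 (-1.09 and -1.66) and Mmp10 (-1.93 and -3.77), named after their values were seen. Mmp14 differed by -0.57 and -0.96. Contractile genes other than the members gave 1 of 19, with medians of 0.06 and 0.01. Collagen processing enzymes gave 0 of 17, with medians of -0.18 and -0.19. The medians of the contractile and collagen processing lists lay closer to those of all genes than the medians of the lists of mesenchymal surface proteins (-0.81 and -0.57) and secreted factors did. Of the 132 genes that were at least 2-fold lower on number 1 in both genotypes, 11 (8.33%) were members.

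Markers of other cell types were read on the same arrays. Stem cell markers differed on number 1 by a median of 0.11 in wild type and 0.01 in knockout, and 0 of 16 were 2-fold lower in both. Tcl1 alone of the 16 was 2-fold higher on number 1 in both (1.04 and 1.39). Both arrays numbered 1 lay above the other 4 for 5 of 16 (23.6% of all genes) and below them for 4 (16.9% of all genes). Their summed signal was 147772, 140104 and 143821 in wild type and 137832, 132177 and 138480 in knockout, lowest on array 2 in both genotypes. That of the members was 13138, 18782 and 25305 in wild type and 14458, 23634 and 23633 in knockout. Primitive endoderm (0.02 and -0.10; 15 of 18 tested), early mesoderm (-0.03 and -0.07; 13 of 14 tested) and endothelial markers (0.21 and 0.29; 4 of 8 tested) gave 0 genes 2-fold lower in both.

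Summed signals of primitive endoderm ranged from 9432 to 9909 in wild type and from 7263 to 7966 in knockout. For early mesoderm they ran from 2037 to 3640 and from 1755 to 2163, highest on the arrays numbered 1. Endothelial sums ran from 734 to 858 and from 606 to 752. None of these lists had its lowest sum on array 1 in both genotypes, unlike the members.

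Macrophage markers did have it, with medians of -0.17 and -0.78 on number 1 (7 of 8 tested). Their sums were 912, 1362 and 1607 in wild type and 1076, 1368 and 1769 in knockout. Lyz2, the lysozyme of macrophages and granulocytes, read 8.01, 9.49 and 9.89 and then 8.24, 9.42 and 9.88. It was the single macrophage marker of 7 that was 2-fold lower on number 1 in both. The rise of the sums from array 1 to arrays 2 and 3 came mostly from Lyz2, so the sums do not show a fall across the list. Csf1r, the receptor for Csf1, read 7.37, 6.97 and 5.87 and then 7.20, 7.11 and 6.63, the opposite order, while Adgre1, a macrophage surface receptor, differed by -0.53 and -0.98. Tyrobp, a signalling adaptor of myeloid cells, had the widest macrophage gap in knockout (-3.12, 8.69-fold) and -0.11 in wild type. That gap rests on 1 dim value, 2.99 on knockout array 1, below the filter value (5.27), beside 6.07 and 6.14 on knockout arrays 2 and 3. Both arrays numbered 1 lay below the other 4 for 3 of the 7 (16.9% of all genes). For skeletal muscle 1 of 5 tested markers, the titin gene Ttn, was 2-fold lower in both, and the list's medians were -0.04 and 0.15. Its sums ran from 7095 to 7910 in wild type and from 5047 to 6404 in knockout. Myf5, a myogenic factor, was listed at 0 on at least 1 array, as was Lcn2 among the secreted factors of fibroblasts; no gene of the other marker lists was. The part of these cell types in the members' values was not tested.

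Xist, the RNA of the inactive X chromosome, read 8.57, 9.32 and 9.46 in wild type and 8.36, 9.53 and 9.06 in knockout. Its differences on number 1 were under 2-fold, at -0.82 and -0.93. Both arrays numbered 1 lay below the other 4, as they did for 16.9% of all genes. The Y-linked gene Uba1y read between 3.92 and 4.34 in wild type and between 8.67 and 9.20 in knockout, and Uty between 3.04 and 4.40 and between 8.27 and 8.95. Kdm5d was too dim to test (3.95 to 5.26). Xist was thus read in the cultures that carried Y-linked signal as well. Its source was not tested.

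**Figure D3:**
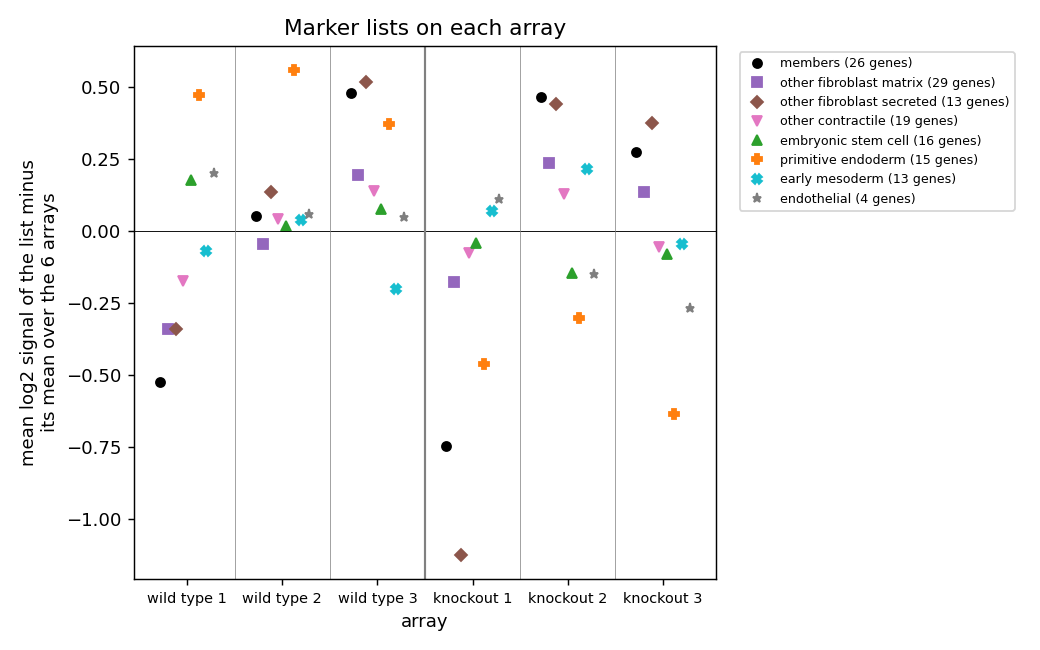
Mean log2 signal of the tested genes of each marker list on each array, minus the list's mean over the 6 arrays (vertical axis). Members (black) and other fibroblast matrix (purple), secreted (brown) and contractile genes (pink) lie lowest on the 2 arrays numbered 1. For the contractile list, knockout arrays 1 (9.38) and 3 (9.40) are close. Stem cell markers (green) and endothelial markers (grey) do not lie lowest on both.

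Outside all lists, the 10 genes with the largest gaps on number 1 in both genotypes were Ctla2a, Ccn4, Gng11, Lef1, Tm4sf1, Mcpt8, Pcdh7, Dbh, Dusp27 and Dyrk1b. Their differences ran from -1.86 to -2.57 in wild type and from -1.85 to -3.38 in knockout. On both arrays numbered 1, Ctla2a, Ccn4, Mcpt8, Pcdh7, Dbh and Dyrk1b read below the filter value (5.27). They passed the filter on the mean only through arrays 2 and 3, so the size of their gaps was limited by brightness. Ccn4, a matricellular protein of the family of connective tissue growth factor, read 4.64, 6.94 and 7.23 in wild type and 3.51, 7.11 and 6.67 in knockout. Lef1, a transcription factor of Wnt signalling, read 8.70, 11.02 and 10.61 and then 9.42, 11.92 and 11.93. Nanog, a pluripotency factor, went the other way, at 13.12, 12.44 and 12.46 and 13.27, 12.38 and 12.45. Between the genotypes Lef1 was higher in knockout by 0.98 (limma, adjusted p = 0.707, and 0.00067 with the replicate number as a block).

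Arrays 2 and 3 also differed from each other, in wild type. There 23 of 26 members read higher on array 3 than on array 2, against 51.4% of all genes, with a median of 0.50 against 0.01 over all genes. In knockout 9 of 26 did, against 50.2% of all genes, with a median of -0.16. The mean log2 signal of the members was 7.63, 8.20 and 8.63 on wild type arrays 1, 2 and 3 and 7.41, 8.62 and 8.43 on the knockout arrays. Wild type 2 lay above both arrays numbered 1 and below wild type 3, knockout 2 and knockout 3, and the numbers 2 and 3 did not order the arrays alike in both genotypes.

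The second comparison, knockout against wild type, is the one the study's groups pose. None of the 26 members passed it. In limma over all genes 0 members were called higher and 0 lower at an adjusted p below 0.05, where 0.256% and 0.48% of all genes were; at an unadjusted p below 0.05 there were 2, Fn1 and Pdgfrb (7.69% of the members), where 13.4% of all genes were. The differences ran from -0.40 (Prrx1) to 0.81 (Pdgfrb), with a median of -0.07, and adjusted p from 0.128 to 0.995. Single arrays moved that median to 0.40 (without knockout array 1) or -0.33 (without wild type array 1). The median standard error of a member was 0.43, against 0.19 over all genes. With the replicate number as a block it was 0.21, against 0.13. For Acta2 the difference was -0.23 with a 95% interval from -1.61 to 1.15 (limma, adjusted p = 0.93), so neither a 2-fold fall nor a 2-fold rise lay outside its interval. Tagln differed by 0.18 (-0.82 to 1.18), Col1a2 by -0.07 (-1.32 to 1.19) and Ccl2 by -0.32 (-1.98 to 1.34).

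Fn1 and Pdgfrb were the 2 members whose genotypes did not overlap, a separation that 19.2% of all genes showed. Fn1 read 12.38 ± 0.12 (SD, n = 3 arrays) in wild type and 12.82 ± 0.15 (n = 3) in knockout. The difference was 0.43 (95% interval 0.20 to 0.67), or 1.35-fold, with a limma adjusted p of 0.128, and 0.00327 with the replicate number as a block. Its second probe set differed by 0.38 (limma, adjusted p = 0.296, and 0.061 with the block).

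Pdgfrb read 6.53 ± 0.20 (n = 3) in wild type and 7.34 ± 0.12 (n = 3) in knockout. The difference was 0.81 (0.34 to 1.28), or 1.75-fold, with a limma adjusted p of 0.154, and 0.043 with the block. Its other probe set was too dim to test. With the block, 2 of 26 members were thus called higher and 0 lower, where 4.13% and 5.75% of all genes were. Without both arrays numbered 1, Fn1 alone was called (0.39, adjusted p = 0.015), and Pdgfrb was not (0.72, adjusted p = 0.108), while 3.76% of all genes were called higher and 5.56% lower.

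Set number by number, the order of the genotypes among the members turned. Between the arrays numbered 1, 16 of 26 members read lower in knockout (48.5% of all genes), with a median of -0.23. Between those numbered 2, 3 did (50.7% of all genes), with a median of 0.41. Between those numbered 3, 20 did (51.5% of all genes), with a median of -0.27. S100a4 differed by -1.30, 0.50 and -0.19 at numbers 1, 2 and 3, and Ccl2 by -1.13, 0.53 and -0.37. Fn1 (0.52, 0.48 and 0.30) and Pdgfrb (0.99, 0.98 and 0.46) read higher in knockout at every number.

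**Figure D4:**
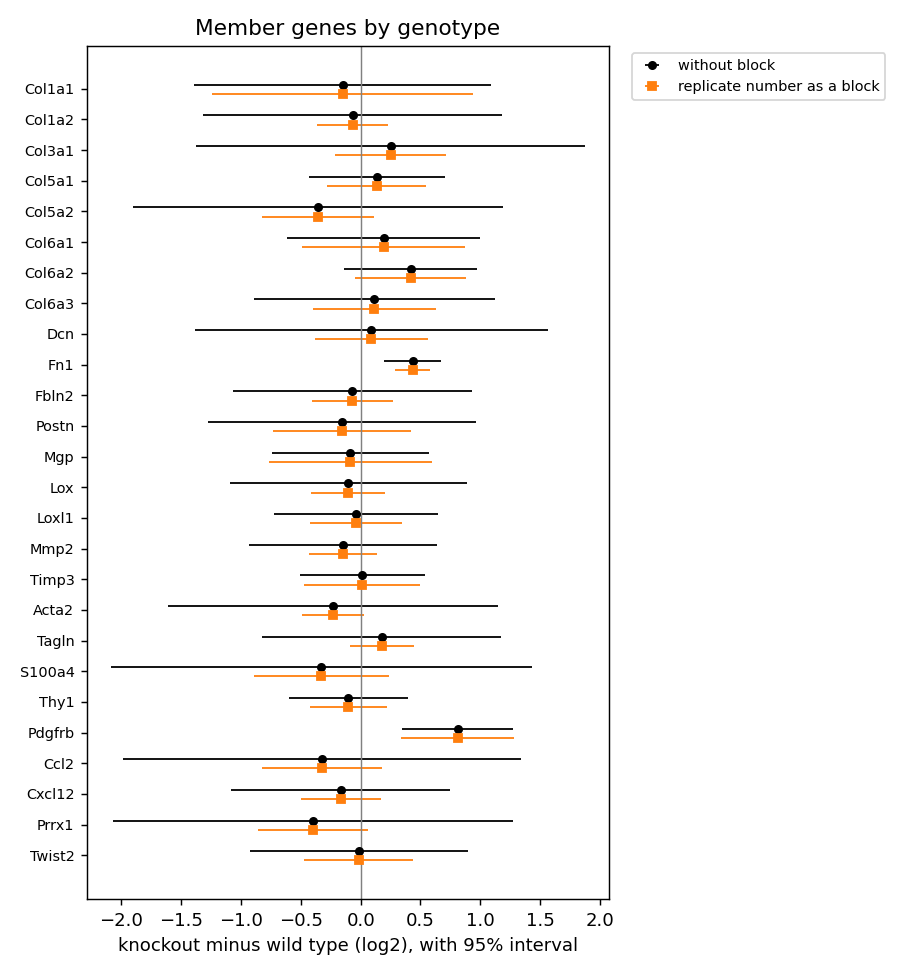
Knockout minus wild type difference (log2, horizontal axis) of each tested member with its 95% interval from limma, without a block (black circles) and with the replicate number as a block (orange squares), 3 arrays per genotype. Intervals of Fn1 and Pdgfrb lie above 0 in both fits, and those of the other 24 members include 0 in both.

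Among the other lists for these pathways, 1 fibroblast matrix gene of 29 passed the genotype comparison and the remaining 28 did not. Of all genes, 0.256% were called higher and 0.48% lower. Cthrc1, a secreted protein first found in injured arteries, read 8.31, 8.15 and 8.15 in wild type and 9.26, 9.64 and 9.45 in knockout. It rose by 1.25 ± 0.15 (SE), or 2.37-fold (limma, adjusted p = 0.016), and it was not among the genes lower on number 1 (0.16 and -0.28). This call was lost without wild type array 2 (adjusted p = 0.106) or 3 (0.13), or knockout array 2 (0.084) or 3 (0.096). Nid2, a basement membrane nidogen, passed with the block alone, at 0.78 (limma, adjusted p = 0.00129, and 0.222 without).

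Collagen processing genes were called in neither direction without the block, and 3 of 17 were lower with it. These were Sparc, a collagen-binding secreted protein (-0.49, limma adjusted p = 0.00158 with the block and 0.198 without), the collagen chaperone gene Serpinh1 (-0.59, 0.00294 and 0.153), and the procollagen proteinase enhancer Pcolce (-0.31, 0.0176 and 0.613). In matrix turnover 1 of 10, the membrane protease Mmp14, was lower with the block (-0.58; limma, adjusted p = 0.0203, and 0.51 without). Among contractile genes 1 of 19, the actin crosslinker Flna, was higher with it (0.37; limma, adjusted p = 0.0217, and 0.222 without). In the growth factor lists of Tgfb and Pdgf, whose ligands and receptors drive matrix synthesis in fibroblasts, 1 of 13 was higher with it, the signal transducer Smad4 (0.38; limma, adjusted p = 0.00921, and 0.171 without). Mesenchymal surface proteins and factors (18 tested) and secreted factors (13 tested) had 0 calls in either fit. With the block, 4.13% of all genes were called higher and 5.75% lower, so single calls in lists of this size do not set a list apart.

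Markers of other cell types moved between the genotypes beside these genes. Over all genes, 0.256% were called higher and 0.48% lower without the block, and 4.13% and 5.75% with it. In stem cell markers 1 of 16 fell, Zfp42 (-1.99; limma, adjusted p = 8.4e-05), and with the block Klf2 and Tcl1 were also lower and Epcam higher. In primitive endoderm 3 of 15 fell, Srgn (-2.57, adjusted p = 0.00635), Gata6 (-1.63, 0.0372) and Col4a1 (-1.02, 0.0457) by limma, and 9 of 15 were lower with the block, Cubn (-2.13) among them. Col4a1 encodes a basement membrane collagen that primitive endoderm makes in quantity. In early mesoderm, with the block, Cdx2 was higher (1.01) and Bmp4 lower (-1.09), and the skeletal muscle light chain Mylpf was lower (-0.40). The part of these cell types in the differences of Fn1, Pdgfrb and Cthrc1 was not tested.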

How the data were processed

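The deposited values were log2 signals, made by the authors with MAS5, per the submitters' processing notes; no version is given in the sources used here. They were used as deposited, since the array medians (6.09 to 6.22) and the trimmed mean signals (497.0 to 497.3) were close to equal. Arrays have no read depth, and precision is limited by how many there are. Arrays were grouped by the genotype and number in their titles. Of 45037 probe sets, 34945 named 1 gene in the platform annotation, 932 several and 9160 were unnamed here; 34741 were matched to RefSeq genes (GRCm38.p6).

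Dim probe sets, with a 6-array mean under the 40th percentile (5.27), were dropped, leaving 27022. Genotypes were compared with limma 3.58.1 in R 4.3.3 (lmFit, eBayes with trend, two-sided, Benjamini-Hochberg adjustment over all probe sets, threshold 0.05), a test checked on simulated data. The simulated noise was independent between arrays, so that check did not cover a shift shared by arrays of one number. Each of 12915 genes was read at its brightest tested probe set. Array 1 was set against arrays 2 and 3 without a test, and called lower at 2-fold or more. Motifs were searched on both strands of the 250 bases before each gene start.

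Deviations from the genotype means correlated across probe sets at 0.50, 0.23 and 0.24 between arrays of the same number, all above the bound of 0.1 used for pairs, and at -0.37 to 0.23 between unlike numbers. Wild type 2 with knockout 3 (0.23) and wild type 3 with knockout 2 (0.17) also passed that bound. It thus set the arrays numbered 1 apart but could not tell how numbers 2 and 3 pair. The labels do not say what a number shares, and values from a second fit, blocked on the number, are printed where they change a call. The members and lists were chosen with earlier results of these arrays known. Named were all members, up to 4 genes from each other list (those past the threshold in either fit, otherwise those with the widest gap on number 1), the 10 widest gaps outside the lists, and Pou5f1, Nanog, Sox2, Setd2 and the sex-linked genes. Alternatives were filters, normalizations, a floor, a fit without trend, single arrays or both arrays numbered 1 left out, genes on chromosomes 8 and Y left out, and the mean over probe sets.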

Additional observations from a re-analysis of the deposited data

How the results depend on the processing

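The number of probe sets called between the genotypes was 175, and it became 2129 with the replicate block, 57 without the intensity trend, 2033 without both arrays numbered 1, and 31 to 431 when single arrays were left out. The number of members called was 0, and it became 2 with the replicate block and 1 without both arrays numbered 1; the other alternatives gave 0. The median knockout minus wild type difference of the members (-0.07) ranged from -0.33 without wild type array 1 to 0.40 without knockout array 1. Leaving out single arrays also turned the direction for Tagln (-0.32 to 0.56), Col1a2 (-0.60 to 0.47), Acta2 (-0.72 to 0.46) and Col1a1 (-0.74 to 0.28), and Col1a1 gave 0.32 without both arrays numbered 1. The cause of these shifts was not tested. The median gap on number 1 stayed between -1.14 and -0.69 in wild type and between -1.36 and -0.99 in knockout under the alternatives run, and members at least 2-fold lower on number 1 in both genotypes numbered 9 to 14. Signals near the filter (Col1a1, Col6a1, Mgp and the 4 untested genes) were limited by brightness, which detection calls were not used here to judge.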
